A study of Mus musculus with 24 samples.

Results

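This report describes the genes for ionotropic and metabotropic neurotransmitter receptors in mouse retinal organoids (MROs) between day 20 (D20) and day 30 (D30) of culture. The 72 members were taken by a rule on gene symbols that uses no measured value, from 46091 annotated genes with a symbol, of which 21624 are protein-coding. This set of genes was chosen with earlier results of these data known. They are the genes for AMPA receptors (Gria, 4 genes), kainate receptors (Grik, 5), delta receptors (Grid, 2), NMDA receptors (Grin, 7), metabotropic glutamate receptors (Grm, 7, Grm6 left out by the rule), GABA-A receptors (16), the rho type of GABA-A receptor (Gabrr, 3), GABA-B receptors (Gabbr, 2), glycine receptors (Glra and Glrb, 5), nicotinic receptors of neurons (Chrn, 11) and of muscle (5) and muscarinic receptors (Chrm, 5). RNA was sequenced from 24 individual MROs, with 6 organoids per timepoint (D20, D22, D25, D30). The MROs were differentiated from the E14Tg2a mouse embryonic stem cell line, carry no engineered allele and, per the labels, were given water as solvent. The differentiation protocol in the study's methods adds the synthetic retinoid EC23 for some days before the first harvest. The labels give the genotype Control to all, but the titles carry the mark Ctrl at D22, D25 and D30 and not at D20, so each comparison with D20 also crosses this difference in naming. All came from 1 independent experiment, so p-values measure the spread between organoids of this experiment, and the day of harvest cannot be told apart from anything else that changed between the harvests.

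Ionotropic receptors are ion channels assembled from several subunits and opened by their transmitter, whereas metabotropic receptors act through G proteins. In the retina, photoreceptors and bipolar cells release glutamate, which is received by AMPA, kainate, NMDA and metabotropic receptors, while amacrine and horizontal cells release GABA and glycine. Acetylcholine is released by starburst amacrine cells and drives waves of activity in the developing retina through nicotinic receptors. Several subunits are known to replace each other as neurons mature, such as GluN2B (Grin2b) and GluN2A (Grin2a) of NMDA receptors.

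Per organoid, 13634846 to 19477108 reads were counted on genes and assembled loci. Counts are given per 1000000 counted reads (CPM), and 3 counts correspond to 0.154 to 0.22 CPM, a limit that covers counting error only. All 8 rod marker genes were detected at each day, and their sum was between 1491 and 3105 normalized CPM at D20 and between 8855 and 17525 at D30. Markers of bipolar cells (6 of 6 tested) summed to 113 to 144 CPM at D20 and 231 to 363 at D30, and those of Müller glia (5 of 5) to 411 to 568 and 1048 to 3912. Within the bipolar list Pcp2 was lower at D30 without overlap, 24.2 to 54.7 CPM against 82.1 to 114 at D20. The other bipolar markers were higher at D30 without overlap. Horizontal cell markers (2 of 3 tested) were lower at D30 than at D20 without overlap, 14.6 to 25 CPM against 51.5 to 72.6. Amacrine markers (6 of 8) summed to 86.7 to 175 CPM at D20, 160 to 305 at D25 and 77.6 to 229 at D30. From D25 to D30, Tfap2b (69.4 to 187 CPM against 17.4 to 46.1) and Slc6a9 (35.3 to 58.7 against 22.4 to 33.9) fell without overlap. The other amacrine markers overlapped between these days. Among these, Gad1 and Gad2 had higher medians at D30 (43.7 and 44.8 CPM) than at D25 (27.5 and 27.9). Chat had a mean of at most 6.5 counts on any day. Ganglion cell markers (6 of 7) summed to 119 to 227 CPM at D20 and 53.3 to 252 at D30. Among them Pou4f1, Pou4f2, Rbpms, Isl2 and Sncg were lower at D30 without overlap. Nefl went the other way, with a median of 79.6 CPM at D20 and 170 at D30. The ranges of Nefl and of Pou4f3 overlapped between these days. Markers of the oligodendrocyte lineage (6 of 6) summed to 69.2 to 84.2 CPM at D20 and 54.2 to 275 at D30, and those of pigment epithelium (3 of 4) to 5.08 to 28.1 and 15.1 to 56.6. Within the oligodendrocyte list Pdgfra was higher at D30 without overlap (median 81.4 CPM against 9.38 at D20). Mbp was lower without overlap (median 15.1 against 28.1), and the other markers of this list overlapped. The part of these cell types in the receptor changes was not tested. Of the 5 cone markers, Opn1mw and Pde6h were at 0 in every organoid at D20. MROs are a retinal culture, but all 7 marker genes of cerebral cortex neurons, none of them at 0 in every organoid of a day, were also detected. The sum of these cortex markers ranged from 22.7 to 237.8 normalized CPM at D20, from 10.9 to 33.2 at D22, from 13.2 to 355.8 at D25 and from 8.54 to 242 at D30. Of the 24 organoids, 9 exceeded 100 CPM, namely 2 at D20, 3 at D25 and 4 at D30. In bulk RNA, a change in the number of cells of a type and a change in RNA per cell cannot be told apart.

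Of the 72 receptor genes, 55 reached a mean of 10 normalized counts and were tested. The 17 others were Grin2d, Grin3b, Grm2, Gabra6, Gabrp, Glra1, Glra3, Glra4, Chrna1, Chrna2, Chrna9, Chrna10, Chrnd, Chrne, Chrng, Chrm4 and Chrm5, and Gabra6, Chrna9 and Chrnd had 0 counts in all 24 organoids. Over the whole interval, D30 against D20, 36 of the 55 were higher and 5 were lower at an adjusted p under 0.01 (edgeR's quasi-likelihood test, adjusted by Benjamini-Hochberg over the 46949 features tested). Of all tested features 13.9% were higher and 13.0% were lower, and of the annotated genes alone 25.1% were higher and 16.7% were lower. The median log2 fold change of the tested members was 1.67, against 0.10 for all tested annotated genes.

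The change was not spread evenly over the 3 steps. From D20 to D22 a single member, Glra2, was higher and none was lower with edgeR, where 1.62% of all features and 2.56% of annotated genes were higher and 0.285% and 0.763% were lower. At an unadjusted p under 0.05, 9 members were higher and 2 lower in this step, a threshold at which all features were not counted. With DESeq2's test 2 members were higher and 0 lower, where 1223 of 46949 features were higher and 382 lower. From D22 to D25, 12 members were higher and none was lower with edgeR, against 3.08% higher and 2.19% lower of all features and 7.33% and 2.92% of annotated genes. Here 28 members were higher and 4 lower at an unadjusted p under 0.05, again without a count of all features. DESeq2's test gave 1 lower member, where 1452 of 46949 features were lower. From D25 to D30, 8 members were higher and 1 was lower, against 1.76% and 1.75% of all features and 4.55% and 2.83% of annotated genes. The medians of the members in the 3 steps were 0.00, 0.71 and 0.69, against -0.06, 0.10 and 0.05 for annotated genes. Of the 36 members higher at D30 than at D20, 21 had their largest step between D22 and D25, 9 between D25 and D30 and 6 between D20 and D22, and 21 passed the threshold in no single step. The same split was not computed for other genes, and annotated genes were also most often higher from D22 to D25 (7.33%). The 3 steps differ in length. The consecutive comparisons share organoids with each other and with the comparison of D30 with D20.

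**Figure D1:**
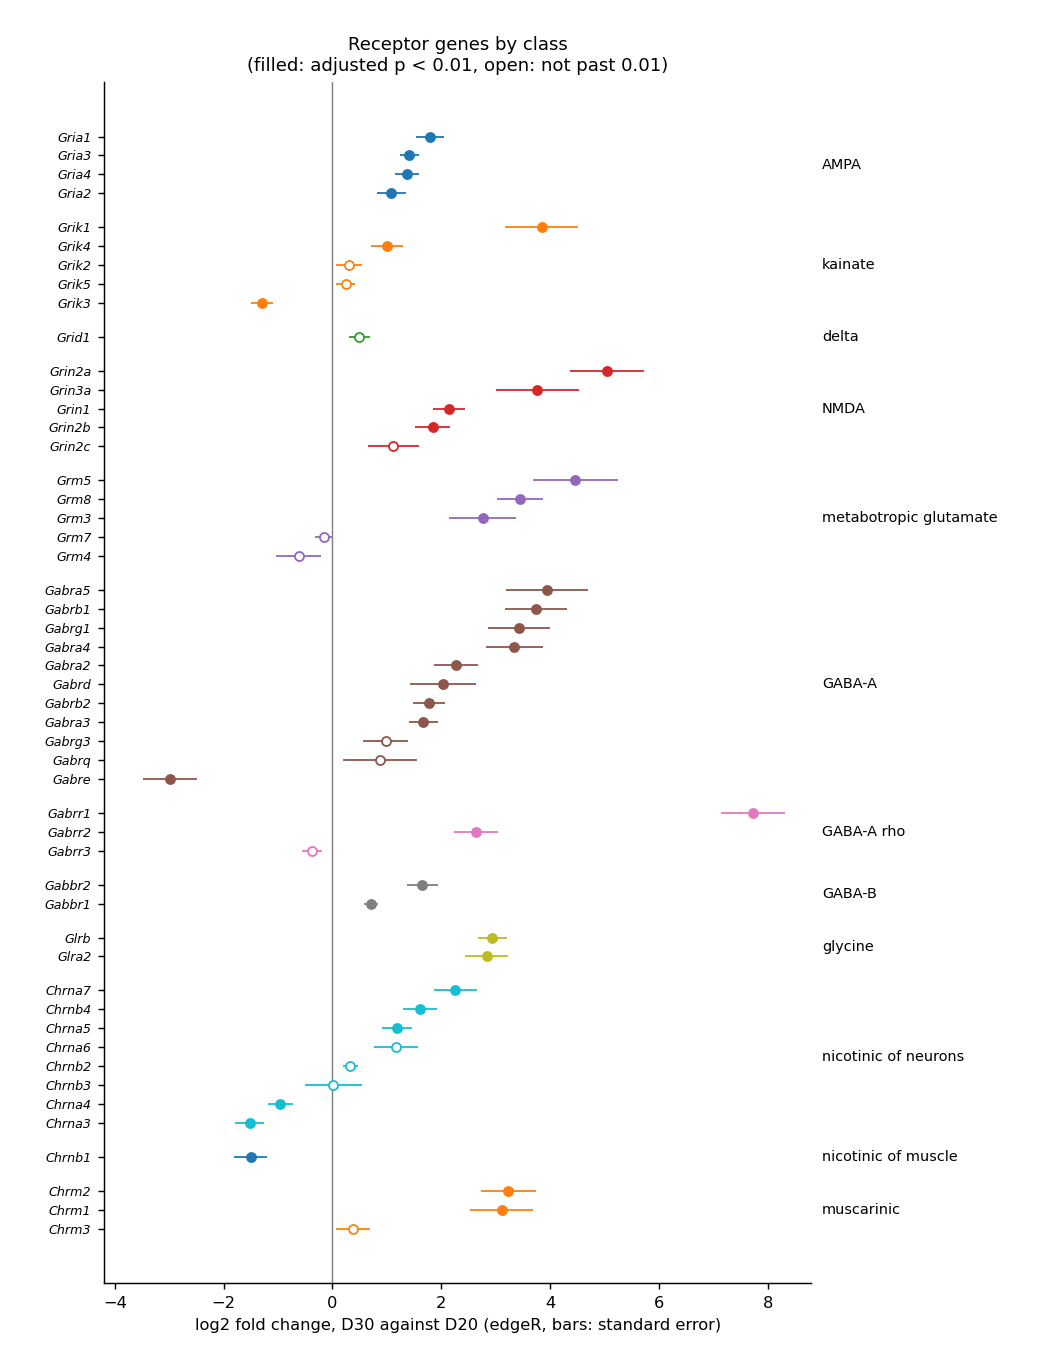
Each point is the log2 fold change of D30 against D20 of a receptor gene (horizontal axis), with its standard error as a bar, grouped by receptor class; filled points had an adjusted p under 0.01. Most rises lie between 1 and 4 on the log2 scale, Gabrr1 at 7.73 stands farthest to the right, and Gabre at -2.99 stands farthest to the left.

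The rho subunits form GABA-gated channels that in the retina are best known from bipolar cells. Gabrr1 and Gabrr2 rose, whereas Gabrr3 did not pass the test for D30 against D20. Gabrr1 was near its detection limit at D20, where 4 of 6 organoids had no count and the range was 0 to 0.134 CPM (median 0). It was between 0 and 0.419 CPM (median 0.036) at D22, between 1.43 and 2.38 (median 1.86) at D25 and between 4.97 and 18 (median 9.87) at D30. Each day from D25 on lay above all organoids of the days before. With 4 counts in all at D20 and 1109 at D30, the ratio of summed counts was 247 (95% interval 96.3 to 909, counting error only), and the ratio of D25 to D22 was 18.9 (9.77 to 42.0). The fitted log2 fold changes were 4.13 ± 0.55 (SE) for D25 against D22 (adjusted p = 1.26e-05) and 2.55 ± 0.38 for D30 against D25 (adjusted p = 4.18e-05).

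Gabrr2 changed later. It was between 0.213 and 1.47 CPM (median 0.965) at D20, between 0.209 and 1.65 (median 1.16) at D22 and between 0.976 and 2.01 (median 1.2) at D25. At D30 it reached 2.06 to 7.83 (median 6.18), above every earlier organoid, a log2 rise over D25 of 2.09 ± 0.39 (adjusted p = 0.000655). Gabrr3 went the other way in this step. It was 8.86 to 11 CPM (median 9.83) at D25 and, without overlap, 4.4 to 7.04 (median 5.24) at D30, a log2 difference of -0.84 ± 0.19 (adjusted p = 0.00412). At D20 it was between 4.75 and 9.74 CPM (median 7.85), and the difference of D30 from D20 was -0.38 ± 0.19 (adjusted p = 0.116). The fall of Gabrr3 after D25 did not pass 0.01 without D25 replicate 3, 4 or 6 or D30 replicate 1, 4 or 5 (adjusted p 0.0109 to 0.0141). Per kilobase of exon, Gabrr3 made up 79.3% ± 9.9 (SD, n = 6) of the 3 rho genes at D20, 61.3% ± 2.51 at D25 and 16.1% ± 6.3 at D30, while Gabrr1 went from 0.938% ± 1.52 to 54.0% ± 4.93. Gabrr3 shares exon sequence with 1700022E09Rik on the opposite strand.

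Gabrr2 and Gabrr1 are neighbours on chromosome 4 and lie on the same strand, with Gabrr2 at 33062999 to 33095865 and Gabrr1 at 33132521 to 33163588 (GRCm38). Their RefSeq promoters (GRCm38.p6, 250 bases before to 50 after the start) are shown because these neighbours rose at different days, Gabrr1 from D25 and Gabrr2 at D30. Both strands were searched for TAATCC, the core sequence of homeodomain factors such as Crx and Otx2 in photoreceptors and bipolar cells, and for CAGATG, an E-box of basic helix-loop-helix factors. Matches are in capitals, and the 2 motifs did not overlap. The promoter of Gabrr2, at chr4:33062862-33063161 on the plus strand, holds TAATCC once, as its reverse complement GGATTA, and that of Gabrr1, at chr4:33132306-33132605 on the plus strand, holds CAGATG once, as CATCTG.
Gabrr2: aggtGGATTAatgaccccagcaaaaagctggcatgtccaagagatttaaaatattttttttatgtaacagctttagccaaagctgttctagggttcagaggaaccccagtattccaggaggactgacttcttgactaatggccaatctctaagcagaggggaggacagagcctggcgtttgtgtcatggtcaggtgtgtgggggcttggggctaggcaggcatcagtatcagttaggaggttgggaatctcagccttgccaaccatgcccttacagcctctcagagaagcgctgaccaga
Gabrr1: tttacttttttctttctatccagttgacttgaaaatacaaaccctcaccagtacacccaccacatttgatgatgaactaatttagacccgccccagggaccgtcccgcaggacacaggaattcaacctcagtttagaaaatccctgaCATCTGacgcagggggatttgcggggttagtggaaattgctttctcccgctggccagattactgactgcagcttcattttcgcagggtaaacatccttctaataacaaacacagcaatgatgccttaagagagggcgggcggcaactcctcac
Of 32851 RefSeq mouse promoters of this length, 7.06% hold TAATCC and 17.2% hold CAGATG. Of the 59 promoters of 51 receptor genes in the same table, 5 hold TAATCC and 3 hold CAGATG. These matches describe the letters in the window and do not show that a factor binds there.

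Glycine receptors are pentamers of alpha subunits with the beta subunit encoded by Glrb, which anchors them at synapses. Both tested members, Glra2 and Glrb, rose. Glra2, the alpha subunit known from immature neurons and from amacrine cells, was the only receptor gene called from D20 to D22. It was between 0.489 and 3.36 CPM (median 1.28) at D20, between 1.58 and 11 (median 4.78) at D22, between 11.7 and 24.3 (median 15.6) at D25 and between 4.44 and 15.4 (median 12.2) at D30. The organoids of D20 and D22 overlapped, whereas those of D25 lay above all of D22. The log2 rises were 1.87 ± 0.39 (adjusted p = 0.0037) in the first step and 1.47 ± 0.36 (adjusted p = 0.00664) in the second, and the last step was -0.51 ± 0.35 (adjusted p = 0.503). The first call was lost without D20 replicate 1, 2, 5 or 6 or D22 replicate 2 or 3 (adjusted p 0.0105 to 0.0208). The second was lost without D22 replicate 1, 4, 5 or 6 or D25 replicate 1, 2, 4 or 5 (adjusted p 0.011 to 0.0215). The rise from D20 to D30, 2.83 ± 0.39 (adjusted p = 9.21e-07), held in all fits without 1 organoid.

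Glrb rose in both later steps. Its levels were 2.92 to 8.51 CPM (median 5.61) at D20, 6.25 to 10.2 (median 7.31) at D22, 15.3 to 32.6 (median 18.2) at D25 and 20.6 to 61.8 (median 43.9) at D30. D22 and D25 did not overlap, and D25 and D30 overlapped through D25 replicate 1 and D30 replicate 6. The rises were 1.34 ± 0.25 (adjusted p = 0.000509) from D22 to D25 and 1.10 ± 0.24 (adjusted p = 0.00308) from D25 to D30, the latter lost without D25 replicate 5 (adjusted p = 0.0116) or D30 replicate 1 (adjusted p = 0.0114). Glra1, the alpha subunit of mature spinal synapses, was too low to test. Its counts over 6 organoids were 1 (D20), 0 (D22), 16 (D25) and 96 (D30), and at D30 it was between 0.428 and 2.27 CPM. Glra3 had 19, 8, 49 and 165 counts and Glra4 had 8, 11, 2 and 3 on the same days.

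**Figure D2:**
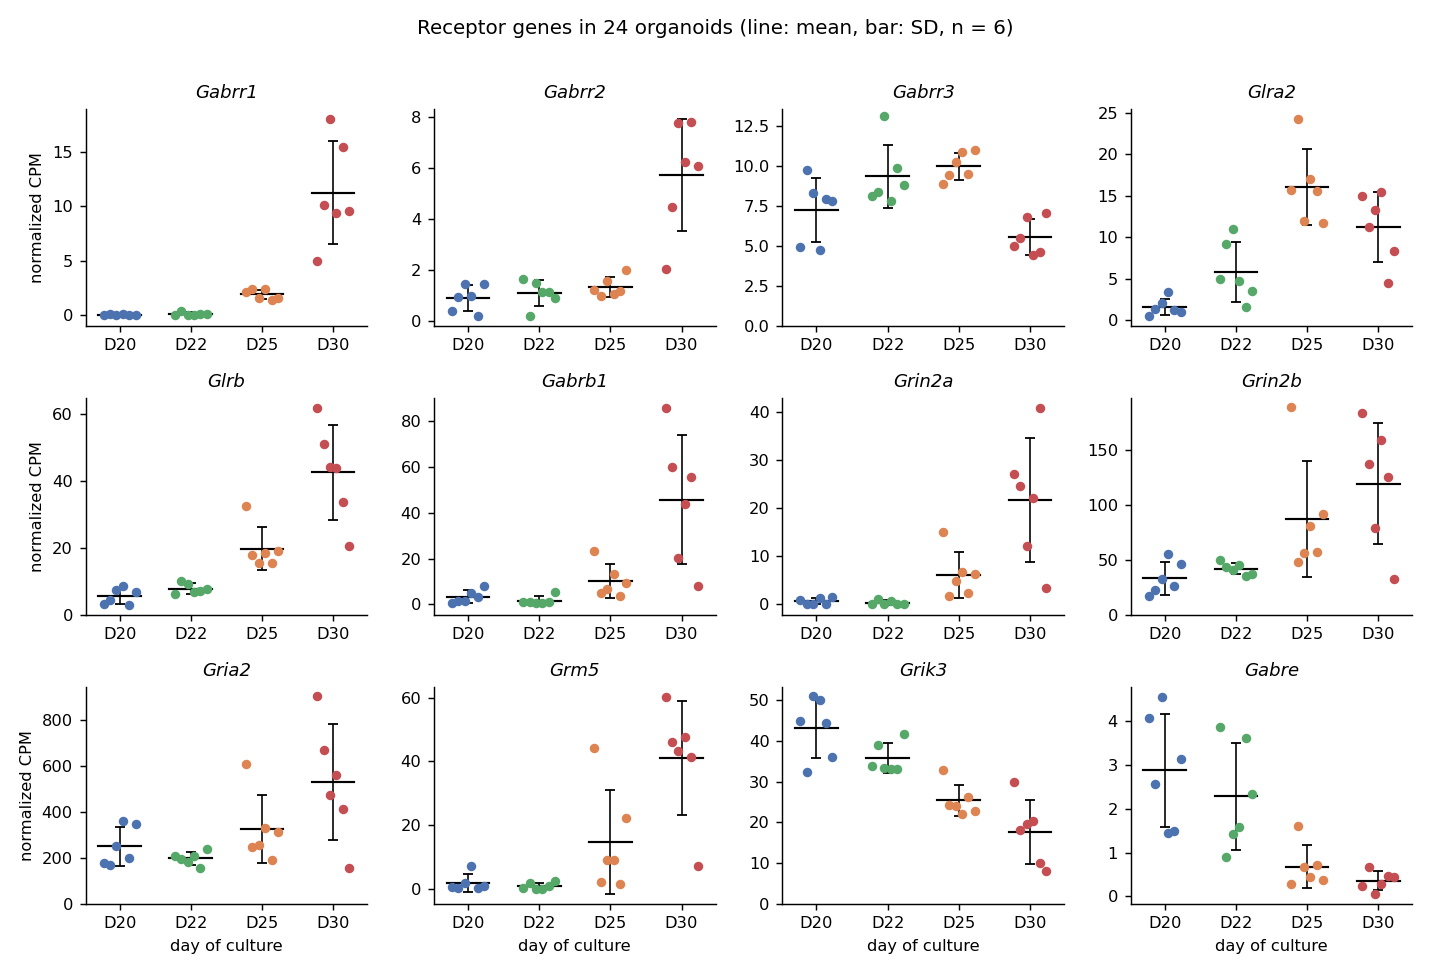
Normalized CPM (vertical axes, each with its own scale from 0) of 12 receptor genes in each organoid by day of culture; points are organoids, lines means and bars SD of 6. Gabrr1, Gabrr2, Glrb and Gabrb1 are highest at D30, Glra2 is highest at D25, and Grik3 and Gabre are highest at D20.

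GABA-A receptors combine alpha, beta and gamma or related subunits around a chloride channel. Of the 14 tested genes of this class, 10 rose from D20 to D30, 1 fell and 3 did not pass. Gabrb2 and Gabrb1 encode beta subunits. Gabrb2 was 6.25 to 14.5 CPM (median 7.34) at D20, 5.54 to 17.2 (median 10.9) at D22, 17.9 to 50.1 (median 23.3) at D25 and 13.5 to 45.9 (median 34.4) at D30. It rose by 1.34 ± 0.29 (adjusted p = 0.00222) from D22 to D25, a call lost without D25 replicate 1 (adjusted p = 0.0106) and with the sum of cortex neuron markers as a covariate (0.75, adjusted p = 0.0819). Gabrb1 rose in both later steps, from 0.479 to 5.52 CPM (median 1.06) at D22 to 3.86 to 23.2 (median 8.03) at D25 and 8.2 to 85.7 (median 49.7) at D30. The steps were 2.59 ± 0.58 (adjusted p = 0.00336) and 2.15 ± 0.52 (adjusted p = 0.00829). The first was lost without D22 replicate 1, 4 or 5 or D25 replicate 1 (adjusted p 0.0109 to 0.0137) and with the cortex covariate (1.26, adjusted p = 0.0713). The second was lost without D20 replicate 5, any of D25 replicates 2 to 6, or D30 replicate 1, 2, 4 or 5 (adjusted p 0.01 to 0.0284).

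Other GABA-A genes rose from D20 to D30 and passed in no single step. Gabra5, known from extrasynaptic receptors, had a log2 rise of 3.94 ± 0.76 (adjusted p = 0.000107), from 0 to 2.38 CPM (median 0.453) at D20 to 0 to 21.3 (median 12.5) at D30. The groups overlapped, since D30 replicate 6 had no count. Gabrg1 rose by 3.43 ± 0.58 (adjusted p = 1.65e-05), from 0.14 to 2.38 CPM (median 0.594) to 2.09 to 14.5 (median 9.86), Gabra2 by 2.28 ± 0.40 (adjusted p = 3.63e-05) and Gabra3 by 1.67 ± 0.27 (adjusted p = 7.99e-06). Gabra2 was 2.73 to 10.3 CPM (median 7.94) at D20 and 7.43 to 63.7 (median 36.5) at D30, and Gabra3 was 3.16 to 10.6 (median 5.78) and 10.9 to 30.9 (median 20.0), without overlap. Gabre, which encodes the epsilon subunit, fell. It was 1.45 to 4.54 CPM (median 2.85) at D20, 0.907 to 3.86 (median 1.95) at D22, 0.289 to 1.6 (median 0.557) at D25 and 0.0579 to 0.673 (median 0.359) at D30, without overlap of D20 and D30, a fall by 2.99 ± 0.49 on the log2 scale (adjusted p = 1.32e-05). Gabra4 and Gabrd also rose, by 3.35 ± 0.52 (adjusted p = 5.79e-06) and 2.03 ± 0.61 (adjusted p = 0.00863), and Gabrg3 and Gabrq did not pass (adjusted p = 0.0632 and 0.336). These 4 genes lay outside the rule for named genes and are given after their values were seen.

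GABA-B receptors are G protein-coupled dimers of the products of Gabbr1 and Gabbr2. Both genes rose from D20 to D30 and neither passed in a single step of the main fit. With the cortex covariate Gabbr2 passed from D25 to D30 (0.68, adjusted p = 0.00766). Gabbr1 was 65.6 to 104 CPM (median 80.8) at D20 and 83.6 to 166 (median 136) at D30, a log2 rise of 0.71 ± 0.13 (adjusted p = 4.67e-05). Gabbr2 was 10.2 to 19.2 CPM (median 14.2) at D20 and 12.7 to 68.5 (median 45.6) at D30, a rise of 1.65 ± 0.29 (adjusted p = 2.85e-05). The groups overlapped for both genes, and D30 replicate 6 had the lowest value of both at D30.

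**Figure D3:**
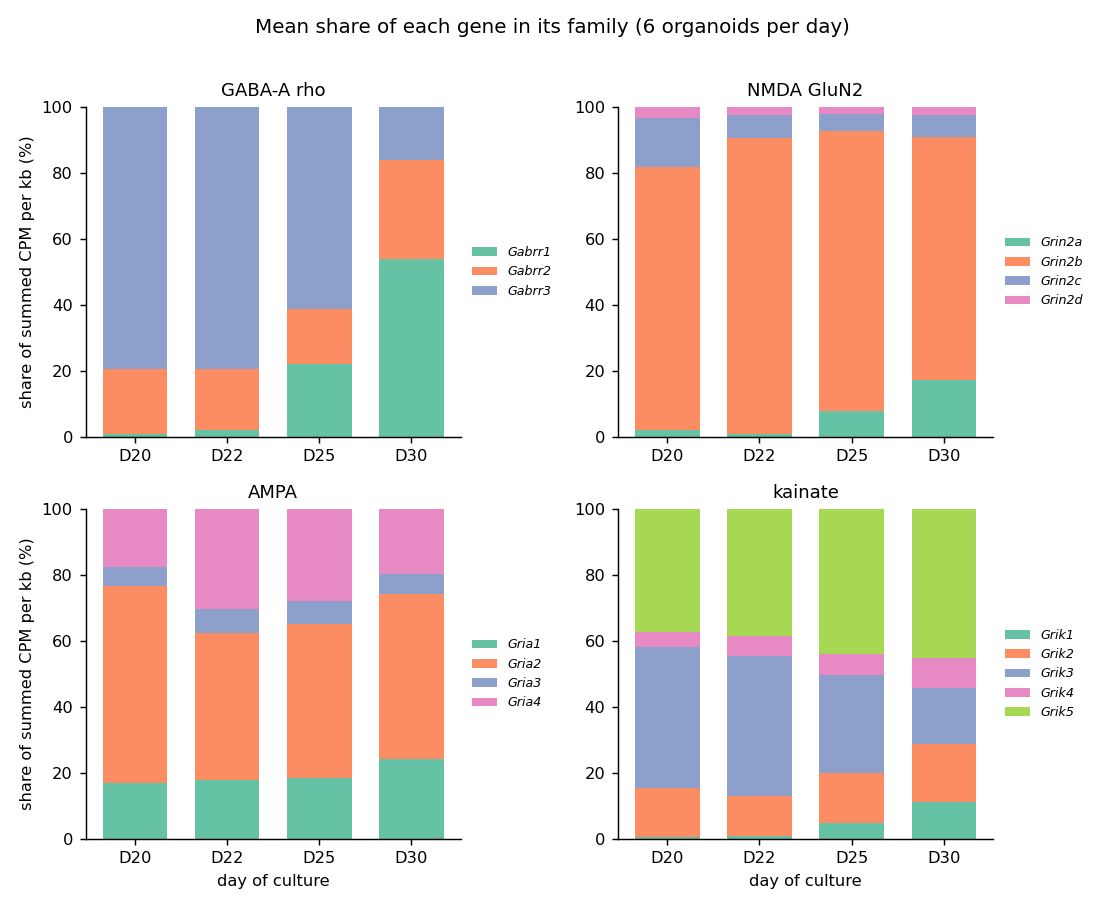
Stacked bars give the mean share, in percent, of each gene in the summed normalized CPM per kilobase of its family (vertical axis) by day of culture, over 6 organoids a day. Gabrr1 takes 54.0% of the rho genes at D30, Grik3 declines from 42.7% to 17.0% of the kainate genes, and Grik1 grows from 0.646% to 11.3%.

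AMPA receptors carry most fast excitatory transmission, and the subunit GluA2, encoded by Gria2, makes them impermeable to calcium. All 4 AMPA genes rose from D20 to D30 and none passed in a single step of the main fit. With the cortex covariate Gria1 passed from D25 to D30 (0.88, adjusted p = 0.00844). Gria2, the most abundant receptor gene per kilobase, was 170 to 360 CPM (median 225) at D20 and 157 to 907 (median 516) at D30. The ranges overlapped because D30 replicate 6 had 157 CPM, and the rise of 1.08 ± 0.27 (adjusted p = 0.00199) was lost without D30 replicate 1 (adjusted p = 0.0109). Gria1 was 18.5 to 51.9 CPM (median 23.2) at D20 and 36.9 to 168 (median 95.2) at D30, a rise of 1.80 ± 0.26 (adjusted p = 1.57e-06). Gria4 was already higher at D22, where it was 36.2 to 70.7 CPM (median 55.5) against 17.3 to 41.8 (median 27.8) at D20, a difference of 0.92 ± 0.22 (adjusted p = 0.0124) that did not pass 0.01. At D30 it was 33.9 to 100.2 (median 80.3), and the rise from D20 was 1.37 ± 0.22 (adjusted p = 1.18e-05). Gria3, which the rule for named genes did not pick and which is given after its value was seen, rose by 1.42 ± 0.18 (adjusted p = 2.69e-07).

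The kainate receptor genes went in different directions. Grik1, known in the retina from OFF bipolar cells, rose by 3.85 ± 0.67 (adjusted p = 3.08e-05). It was 0 to 2.84 CPM (median 0.0664) at D20, 0.0676 to 1.33 (median 0.572) at D22, 1.74 to 4.37 (median 3.14) at D25 and 3.99 to 17.0 (median 6.36) at D30, and D30 lay above all of D20. Without D20 replicate 4, the highest organoid of D20, the rise of Grik1 was 6.15 (adjusted p = 1.12e-08). Grik3 fell by 1.29 ± 0.20 (adjusted p = 5e-06), from 32.4 to 51.0 CPM (median 44.5) at D20 through 33.0 to 41.6 (median 33.7) and 22.1 to 32.7 (median 24.1) to 7.98 to 29.9 (median 18.8) at D30. D20 and D30 did not overlap, nor did the sums of horizontal cell markers, which were also lower at D30 and whose part in this fall was not tested. Grik2 was 16.4 to 30.0 CPM (median 20.4) at D20 and 10.8 to 49.9 (median 26.0) at D30, and Grik5 was 15.6 to 28.4 (median 22.8) and 16.5 to 34.7 (median 26.0). Their log2 differences of 0.30 ± 0.23 and 0.24 ± 0.18 did not pass (adjusted p = 0.327 and 0.306). Per kilobase, Grik3 made up 42.7% ± 3.01 (SD, n = 6) of the kainate genes at D20 and 17.0% ± 4.2 at D30, and Grik1 went from 0.646% ± 1.18 to 11.3% ± 6.11. Grik4, given after its value was seen, rose by 1.01 ± 0.30 (adjusted p = 0.00837).

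The delta receptors bind cerebellins and act as synaptic adhesion proteins. Grid1 rose in the last step by 0.82 ± 0.20 (adjusted p = 0.00717), from 5.65 to 8.23 CPM (median 6.53) at D25 to 7.82 to 13.6 (median 12.7) at D30, and this call was lost without D25 replicate 3, 4, 5 or 6 or D30 replicate 1, 2, 3, 4 or 5 (adjusted p 0.0104 to 0.0232). For D30 against D20 it did not pass (0.49 ± 0.20, adjusted p = 0.0468), but did without D20 replicate 3 (adjusted p = 0.00501).

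NMDA receptors need the obligatory subunit GluN1, encoded by Grin1, and GluN2 or GluN3 subunits that set their kinetics. Of the 5 tested genes, 4 rose from D20 to D30, with Grin2a in front. Grin2a was 0 to 1.54 CPM (median 0.488) at D20, 0 to 1.19 (median 0.106) at D22, 1.67 to 15.1 (median 5.52) at D25 and 3.33 to 40.9 (median 23.4) at D30. D25 lay above all of D22 and D30 above all of D20. Its log2 rises were 4.15 ± 0.73 (adjusted p = 0.000305) from D22 to D25 and 5.05 ± 0.69 (adjusted p = 6.27e-07) from D20 to D30, the latter resting on low counts at D20. Grin2b was 17 to 55.5 CPM (median 29.4) at D20, 35.7 to 49.8 (median 42.1) at D22, 48.5 to 189 (median 69.1) at D25 and 33.0 to 184 (median 132) at D30, a rise from D20 of 1.85 ± 0.32 (adjusted p = 3.01e-05). Grin1 was 4.7 to 11.3 CPM (median 5.69) at D20 and 10.4 to 44.6 (median 31.2) at D30, a rise of 2.14 ± 0.29 (adjusted p = 6.21e-07). Grin3a was 0 to 4.49 CPM (median 0.07) at D20 and 1.5 to 25.5 (median 13.3) at D30, a rise of 3.77 ± 0.77 (adjusted p = 0.000212). Grin2c was 0.356 to 1.82 (median 0.966) and 0.61 to 5.61 (median 1.8) and did not pass (adjusted p = 0.0587), and Grin2d, which was not tested, had 35 counts at D20 and 80 at D30.

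The balance of paired subunits was compared within each library, as the log2 ratio of their counts with 0.5 added to each. For 7 pairs it was tested between the 6 organoids of D20 and the 6 of D30 by an exact two-sided permutation test, whose smallest possible p is 0.00216. The ratio of Grin2a to Grin2b went from -6.58 ± 2.01 (SD, n = 6) to -2.62 ± 0.56, a difference of 3.96, with all 6 organoids of D30 above all of D20 (exact permutation p = 0.00216, adjusted over the 7 pairs 0.00758). The ratio of Gria2 to Gria1 went from 3.19 ± 0.30 to 2.40 ± 0.25, a difference of -0.78, with all 6 organoids of D30 below all of D20 (exact permutation p = 0.00216, adjusted 0.00758). Grin2b thus exceeded Grin2a at both days, and Gria2 exceeded Gria1. The ratio of Glra1 to Glra2 rose by 1.41 (exact permutation p = 0.013, adjusted 0.0303), but with 1 count added in place of 0.5 the difference was 0.61 (exact permutation p = 0.186). The ratio of Grin2c to Grin2d did not pass, with a difference of -0.31 (exact permutation p = 0.704, n = 6). The pair Chrne and Chrng was too low to test.

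**Figure D4:**
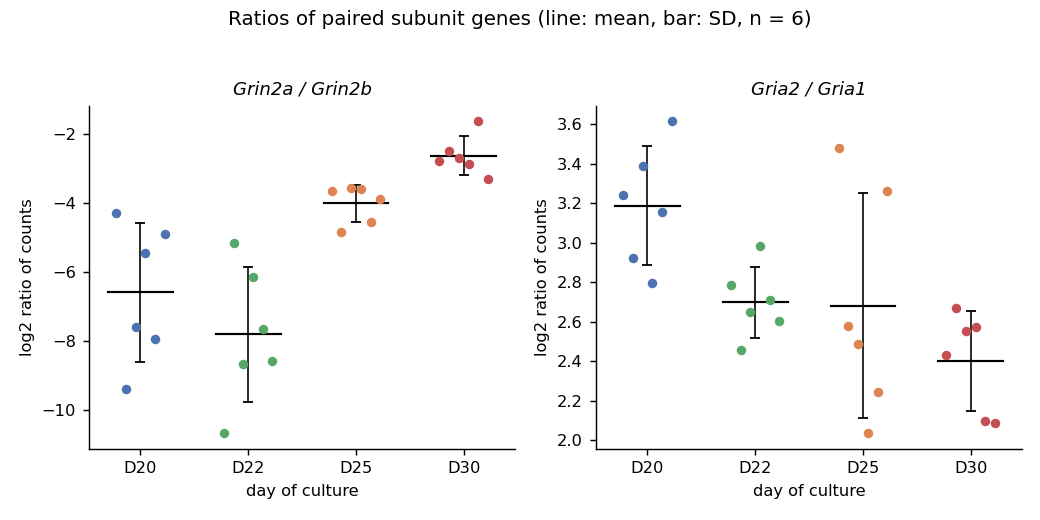
Log2 ratio of the counts of Grin2a to Grin2b (left) and of Gria2 to Gria1 (right) in each organoid by day of culture, with means as lines and SD of 6 organoids as bars. All 6 organoids of D30 lie above those of D20 on the left and below them on the right.

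Metabotropic glutamate receptors fall into a group I that excites, to which Grm5 belongs, and groups II and III that mostly inhibit (Grm2 and Grm3, and Grm4, Grm7 and Grm8). Of the 6 tested genes, 4 rose from D20 to D30, and Grm3 and Grm5 were among those that passed from D22 to D25. Grm5 was 0.134 to 7.32 CPM (median 0.763) at D20, 0 to 2.33 (median 0.488) at D22, 1.43 to 44.2 (median 9.09) at D25 and 7.1 to 60.2 (median 44.7) at D30. Neighbouring days overlapped. D25 replicate 1 was the highest of its day and D30 replicate 6 the lowest of its day. The rises were 4.13 ± 0.83 (adjusted p = 0.00127) from D22 to D25 and 4.47 ± 0.79 (adjusted p = 3.4e-05) from D20 to D30, and the first was lost with the cortex covariate (2.18, adjusted p = 0.0685). Grm3 was 0.0613 to 1.67 CPM (median 0.877) at D22, 1.6 to 24.6 (median 3.92) at D25 and 1.44 to 16.1 (median 8.81) at D30, with a rise of 3.29 ± 0.65 (adjusted p = 0.00103) from D22 to D25 that was lost with the same covariate (1.79, adjusted p = 0.0543).

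Among the group III genes, Grm8 rose by 3.45 ± 0.42 from D20 to D30 (adjusted p = 1.06e-07), from 0.28 to 3.83 CPM (median 1.89) to 10.2 to 25.3 (median 18.7), without overlap. Grm7, known from ribbon and conventional synapses of the retina, was 36.0 to 43.1 CPM (median 39.9) at D20 and 22.2 to 44.9 (median 39.3) at D30, and its difference of -0.16 ± 0.17 did not pass (adjusted p = 0.496). Grm4, given after its value was seen, did not pass (-0.62 ± 0.41, adjusted p = 0.253).

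The nicotinic genes moved apart. Chrna3 and Chrna4, whose subunits form receptors with beta subunits in early neurons, fell from D20 to D30, whereas Chrna7 and Chrnb4 rose. Chrna3 was 7.39 to 21.4 CPM (median 14.1) at D20, 6.33 to 14.6 (median 9.14) at D22, 4.52 to 7.84 (median 6.21) at D25 and 3.07 to 8.76 (median 3.84) at D30, a fall by 1.52 ± 0.27 on the log2 scale (adjusted p = 3e-05) although D30 replicate 6 lay above the lowest organoid of D20, replicate 4. Chrna4 was 8.68 to 13.5 CPM (median 10.8) at D20 and 2.05 to 7.82 (median 6.37) at D30, without overlap, a fall by 0.96 ± 0.24 (adjusted p = 0.00171). The sum of horizontal cell markers and the ganglion cell markers Pou4f1, Pou4f2, Rbpms, Isl2 and Sncg were also lower at D30. The ganglion cell marker Nefl had a higher median at D30 (170 CPM) than at D20 (79.6). The part of these markers in the falls of Chrna3 and Chrna4 was not tested. Chrna7, which can form receptors on its own, was 0.206 to 0.924 CPM (median 0.654) at D20, 0.627 to 1.34 (median 0.962) at D25 and 1.77 to 4.68 (median 2.6) at D30. It rose by 2.25 ± 0.39 (adjusted p = 3.06e-05) over the interval and by 1.63 ± 0.38 (adjusted p = 0.00567) in the last step. This last call was lost without D25 replicate 1, 2, 3, 4 or 5 or D30 replicate 2, 3 or 4 (adjusted p 0.0102 to 0.0228). Chrnb4 was 1.91 to 8.61 CPM (median 6.62) at D20 and 10.9 to 30.7 (median 18.5) at D30, without overlap, a rise of 1.61 ± 0.31 (adjusted p = 0.000112).

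Chrnb2, the commonest beta partner in neurons, was 14.5 to 20.9 CPM (median 17.6) at D20 and 17.3 to 26.8 (median 23.5) at D30 and did not pass (0.33 ± 0.14, adjusted p = 0.0555). Chrna5 rose by 1.19 ± 0.27 (adjusted p = 0.000818), and Chrna6 and Chrnb3 did not pass (adjusted p = 0.0212 and 0.983), all 3 given after their values were seen. Of the 5 genes of the muscle receptor, Chrnb1 was the only tested member. It was 4.61 to 10.2 CPM (median 6.71) at D20, 1.87 to 9.99 (median 4.08) at D22, 1.95 to 3.57 (median 2.75) at D25 and 1.51 to 3.01 (median 2.56) at D30, without overlap of D20 and D30, a fall by 1.5 ± 0.31 (adjusted p = 0.000234). The 7 skeletal muscle markers, of which 2 reached the mean count for a test, summed to 6.07 to 13.7 CPM at D20 and 1.47 to 5.71 at D30, and their part in this fall was not tested.

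Muscarinic receptors are G protein-coupled. Chrm1 stayed between 0 and 1.4 CPM up to D25 and reached 0.998 to 6.59 (median 4.32) at D30, above all organoids of D25, a rise of 3.04 ± 0.56 (adjusted p = 0.000595) in the last step. Chrm2 rose earlier, from 0 to 0.732 CPM (median 0.29) at D22 to 1.6 to 6.25 (median 2.09) at D25, by 2.90 ± 0.54 (adjusted p = 0.000614) and without overlap, and was 2.09 to 11.4 (median 6.47) at D30. Chrm3, the highest of the class per kilobase over all days, was 5.37 to 7.68 CPM (median 6.04) at D20, 2.73 to 5.38 (median 3.82) at D25 and 2.99 to 16.6 (median 7.81) at D30, and its difference of 0.38 ± 0.32 between D30 and D20 did not pass (adjusted p = 0.373).

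The levels of the genes were compared per kilobase of exon, as the mean over all 24 organoids. Gria2 led with 21 CPM per kilobase. Among the other genes of the first 10 were Gabbr1 with 13.2, Gria4 with 9.22, Gria1 with 8.48, Grm7 with 6.04, Grik5 with 4.28, Glrb with 4.06, Gabbr2 with 3.67 and Chrnb4 with 3.41. They thus hold subunits or receptors for glutamate, GABA, glycine and acetylcholine. When the longest transcript took the place of the exon union, 8 of the 10 were again among the first 10.

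Of the 72 genes, 27 lie in 10 clusters in which neighbours are less than 1000000 bases apart, and clustered genes did not move as 1 block. On chromosome 5, Gabrg1, Gabra2, Gabra4 and Gabrb1 rose by 3.43, 2.28, 3.35 and 3.74 on the log2 scale from D20 to D30. Gabra4 and Gabrb1 lie head to head on opposite strands and overlap by 196 bases at their starts, so that reads there cannot be assigned to 1 of them without use of the strand. On chromosome X, Gabre fell by 2.99 on the log2 scale and Gabra3 rose by 1.67. On chromosome 9, Chrnb4 rose by 1.61 and its neighbour Chrna3 fell by 1.52 on the log2 scale. On chromosome 3, Gria2 and Glrb rose by 1.08 and 2.94. In all, 23 of the 72 genes share annotated exon sequence with another gene, and whether counting used the strand is not given in the sources used here, so these cannot be fully told apart from their partners.

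Receptors work with auxiliary subunits, chaperones and scaffold proteins, and 43 such genes were listed. Of the 41 tested, 25 rose and 3 fell from D20 to D30, with a median log2 fold change of 0.96, where 25.1% of annotated genes were higher and 16.7% lower. In the 3 steps 2, 8 and 3 were higher, where 2.56%, 7.33% and 4.55% of annotated genes were. The partners of kainate receptors Neto1 and Neto2 rose by 4.08 (adjusted p = 5.47e-05) and 2.28 (adjusted p = 2.94e-07). Among the partners of AMPA receptors, Shisa9 rose by 3.52 (adjusted p = 3.53e-07), Cacng5 by 2.67 (adjusted p = 8.86e-05), Shisa6 by 2.55 (adjusted p = 0.000224) and Cnih3 by 2.5 (adjusted p = 0.0096). Other partners of AMPA receptors, Cacng2, Cacng3, Cacng4 and Pick1, did not pass (0.18, -0.60, 0.04 and -0.11, adjusted p = 0.602, 0.0849, 0.86 and 0.436). Lynx1, which binds nicotinic receptors, rose by 3.76 (adjusted p = 2.25e-07), and Ric3, their chaperone, by 1.16 (adjusted p = 4.57e-10). Gphn, the scaffold gephyrin of glycine and GABA-A receptors, rose by 0.94 (adjusted p = 9.63e-09) and Dlg4, the scaffold PSD-95, by 1.73 (adjusted p = 2.83e-11). Grip1, Homer3 and Kctd8 fell by 0.56, 0.63 and 0.70 on the log2 scale (adjusted p = 0.00782, 0.00888 and 0.00909).

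The receptor genes varied between organoids of the same day. The median coefficient of variation over 6 organoids was 39.4%, 37.6%, 32.7% and 43.6% on the 4 successive days for the 55 tested members, against 19.1%, 21.2%, 17.8% and 21.8% for tested annotated genes, which were not matched to the members for expression level. Single organoids stood apart over many members. D30 replicate 6 was the lowest of its day for 36 of the 55 members (65.5%), against 37.4% of annotated genes. D25 replicate 1 was the highest for 24 (43.6% against 23.0%), D20 replicate 4 was the highest for 24 (43.6% against 14.9%) and D20 replicate 1 the lowest for 24 (43.6% against 23.3%).

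Whether the members moved with the sum of the 7 cerebral cortex neuron markers was not tested by a correlation. D20 replicate 6 had the highest sum of D20 (237.8 CPM) and was the highest of its day for 11 members. D30 replicate 5 had the highest sum of D30 (242 CPM). It was the highest of its day for 9 members and the lowest for 11. D30 replicate 6 had the lowest sum of its day (8.54 CPM) and D25 replicate 1 the highest (355.8 CPM), whereas D20 replicate 4, with 64.2, had neither. Other marker lists stood apart in these organoids too. D30 replicate 6 was also the lowest of its day for markers of Müller glia (1048 CPM), ganglion cells (53.3) and the oligodendrocyte lineage (54.2), and the highest for cones (51.6) and horizontal cells (25). D25 replicate 1 was the lowest for rods (10074), cones (22), bipolar cells (144) and pigment epithelium (6.08) and the highest for the oligodendrocyte lineage (76). D20 replicate 1 was the lowest for rods (1491), cones (17.6), amacrine cells (86.7) and ganglion cells (119) and the highest for pigment epithelium (28.1). Their part in the members' values was not tested. At D30 the 2 organoids at or under 100 CPM were replicate 3 (33.1 CPM) and replicate 6. In these, Gabrb1 was 20.2 and 8.2 CPM against 43.9 to 85.7 in the other 4, and Gabra2 was 22.2 and 7.43 against 31.4 to 63.7. Gabrr1, in contrast, was 18 and 9.59 against 4.97 to 15.4. When only the 15 organoids at or under 100 CPM were fitted (4, 6, 3 and 2 at the 4 days), 18 of the 53 members tested there were higher and 3 lower at D30 than at D20, where 6.27% of all features were higher and 5.92% lower. Gabrr1 with 7.52 (adjusted p = 5.01e-07), Glrb with 2.79 (adjusted p = 1.5e-06), Glra2 with 2.76 (adjusted p = 0.000786), Grm8 with 3.71 (adjusted p = 0.000115) Grin2a with 3.83 (adjusted p = 0.00578) and Gabrb1 with 2.43 (adjusted p = 0.00953) were among the higher, and Chrna4 with -1.84 (adjusted p = 0.000903) among the lower. Grm5, Gria2, Grin2b and Gabra5 did not pass there (log2 differences 3.59, 0.50, 0.91 and 2.07, adjusted p = 0.0163, 0.265, 0.0439 and 0.287). Gabra2, Gabbr1, Gabbr2, Gria1, Grin1, Grin3a, Grm3, Chrna3, Chrna7 and Chrnb1 were likewise past 0.01 in all 24 organoids and not in these 15 (adjusted p 0.0156 to 0.193). The same held for Gabra4, Gabrd, Chrna5 and Grik4, given after their values were seen (log2 differences 2.18, 1.65, 1.02 and 0.07, adjusted p = 0.0329, 0.223, 0.126 and 0.938). Chrm1 was not among the 53 members tested in this fit. At D30 it was 1.97 and 0.998 CPM in replicates 3 and 6, against 3.73 to 6.59 in the other 4. From D22 to D25, Gabrr1 was the only member called in these organoids, and from D20 to D22 and from D25 to D30 edgeR called none in either direction (8 higher and 3 lower, and 10 higher and 3 lower, at an unadjusted p under 0.05). All features were not counted at the unadjusted threshold. Of all features in this fit, 0.517% were higher and 0.264% lower from D22 to D25, 0.768% and 0.144% from D20 to D22, and 0.300% and 0.579% from D25 to D30. With the marker sum as a covariate in the fit of all 24 organoids, 5 members were higher from D22 to D25 (1.80% of all features). Gabrr1 (4.24, adjusted p = 2.05e-05), Grin2a (2.48, adjusted p = 0.00566), Chrm2 (2.56, adjusted p = 0.00694) and Glra2 (1.64, adjusted p = 0.00794) were among them, and Glrb was not (0.91, adjusted p = 0.0113). The call of Glra2 from D20 to D22 was also lost there (1.72, adjusted p = 0.0193). Other genes passed only with this covariate. Grin2b was higher from D20 to D22 (1.00, adjusted p = 0.00502). From D25 to D30, Grin2a (1.78, adjusted p = 0.0025), Gabbr2 (0.68, adjusted p = 0.00766), Gria1 (0.88, adjusted p = 0.00844) and Grin1 (0.85, adjusted p = 0.00947) were higher.

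**Figure D5:**
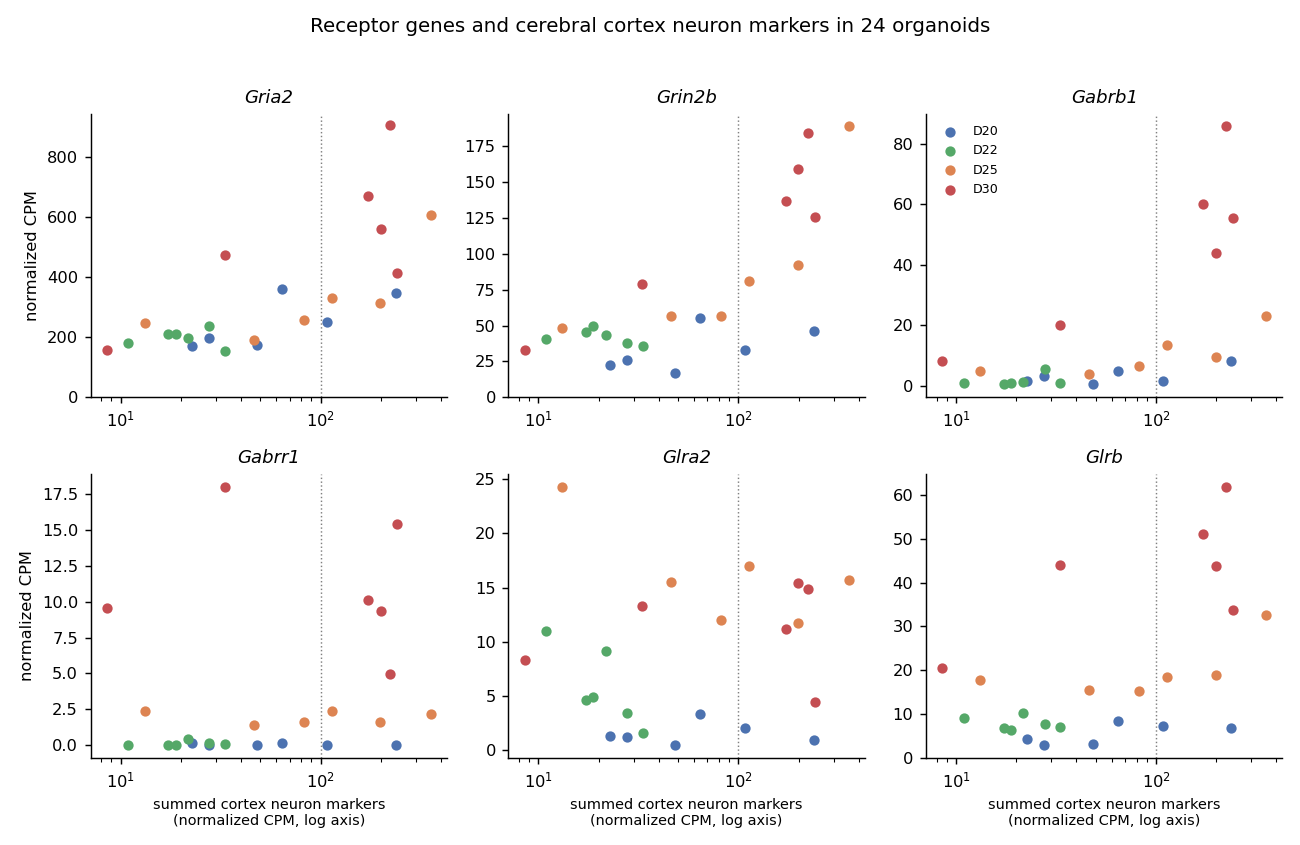
Normalized CPM of 6 receptor genes (vertical axes) in each organoid against the summed level of 7 cerebral cortex neuron markers (horizontal axis, log scale, normalized CPM), coloured by day; the dotted line marks 100 CPM. At D30 the organoids left of the line, with sums of 33.1 and 8.54, have the lowest Gabrb1 and Grin2b of their day, but not the lowest Gabrr1 or Glra2.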

How the data were processed

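RNA was sequenced from 24 individual MROs, 6 each at D20, D22, D25 and D30. The authors aligned the reads to GRCm38 with HISAT2, assembled transcripts with StringTie (version 1.3.3) and counted reads per gene or assembled locus with HTSeq (version 0.6.1). The deposited values are counts, whole numbers without normalization, on 126602 features (46603 with an Ensembl identifier, 79999 assembled loci). Whether the counting used the strand is not given in the sources used here. Summary lines of the count tables were left out of library sizes and tests. Reads on no feature were 35.0% to 45.6% of the listed total.

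Samples were grouped by their labels. The 46949 features whose mean normalized count reached 10 (16253 annotated genes, 30696 assembled loci) entered edgeR's quasi-likelihood test (4.0.16, R 4.3.3) after TMM normalization, in 1 fit of the 24 organoids without covariates. Benjamini-Hochberg adjustment ran over all tested features, with a threshold of 0.01. Standard errors were derived from the test statistic. The common biological coefficient of variation was 0.3846. Normalized CPM are counts per 1000000 reads of the TMM-scaled library size, and levels per kilobase use the union of GENCODE exons. No 2 libraries of a day agreed within sampling noise, since chi-square over its degrees of freedom was never below 6. The scripts were tested on simulated counts.

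Receptor genes were given with values where they were among the 3 highest of their class per kilobase, passed the threshold in a consecutive step, were among the 10 largest rises or falls of D30 against D20, or belonged to a tested pair. Some receptor genes are counted among the members but are not reported here by name, nor are the results that need them. The members, marker lists and the list of auxiliary genes were chosen with earlier results of these data known. Intervals of summed counts are exact and cover counting error only. Alternatives were DESeq2's test (version 1.42.0), DESeq2's size factors, other filters, annotated genes only, a replicate block, fits of the compared days only, the omission of each organoid and, added after seeing the data, 2 ways of accounting for cortex markers.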

Additional observations from a re-analysis of the deposited data

Results flagged for a closer look

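Within each day, the highest or lowest organoid of 40 named and tested receptor genes was set against the others, by the gap to its nearest neighbour as a share of the range. In 19 of 160 groups that gap exceeded Dixon's critical value for 6 samples, which chance passes in about 1 of 20 groups. Of these 19, 6 were D20 replicate 4, 6 were D25 replicate 1 and 2 were D30 replicate 6, and genes of the same organoid are not independent.

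D20 replicate 4 was the highest of its day for Gria1 with 51.9 normalized CPM (next 28.4), Grm5 with 7.32 (next 1.72), Grin3a with 4.49 (next 1.09), Grik1 with 2.84 (next 0.403), Gabrg1 with 2.38 (next 0.757) and Chrm2 with 1.78 (next 0.739). It had the highest amacrine (175 CPM) and Müller glia markers (568) of D20 and the lowest markers of bipolar cells (113), horizontal cells (51.5), skeletal muscle (6.07) and pigment epithelium (5.08), while its cortex neuron markers, with 64.2 CPM, were neither highest nor lowest. Their part in these values was not tested.

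D25 replicate 1 was the highest of its day for Gria2 with 607 normalized CPM (next 331), Grin2b with 189 (next 92.1), Gabbr2 with 54.4 (next 26.2), Grm7 with 40.6 (next 31.7), Glrb with 32.6 (next 19.0) and Chrm2 with 6.25 (next 2.81). It also had the highest cortex neuron markers of the 24 organoids, 355.8 CPM, whose part in these values was not tested.

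D30 replicate 6 was the lowest of its day for Grm5 with 7.1 normalized CPM (next 41.3) and Grid1 with 7.82 (next 11.4), and it had the lowest cortex neuron markers of the 24 organoids, 8.54 CPM, beside the lowest Müller glia, ganglion cell and oligodendrocyte lineage markers of its day. The 5 other values were highest in D25 replicate 5 for Chrnb2 with 28.2 normalized CPM (next 24.7), in D25 replicate 4 for Gabra2 with 27.8 (next 15.6), in D22 replicate 6 for Gabrb1 with 5.52 (next 1.26), in D25 replicate 2 for Gabre with 1.6 (next 0.713) and in D22 replicate 2 for Gabrr1 with 0.419 (next 0.133).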

How the results depend on the processing

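The 36 higher and 5 lower members of D30 against D20 stayed at 34 to 37 and 5 when each organoid was left out, and within 1.5 times under every alternative except the fit of the 15 organoids with at most 100 CPM of cortex markers, which gave 18 and 3. That fit and the covariate below were chosen after seeing the data, and it holds fewer organoids.

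Counts of the single steps moved more. For D22 against D20 the 1 higher member became 2 with DESeq2's test and with annotated genes only, 3 without a filter and 3 with the replicate block, and 0 in the low-marker organoids. Leaving out an organoid gave 0 to 3 (0 without D20 replicate 1, 2, 5 or 6 or D22 replicate 2 or 3, 2 without D22 replicate 5 or D30 replicate 5, 3 without D20 replicate 4 or D22 replicate 6). For D25 against D22 the 12 higher became 19 when only these days were fitted, 1 in the low-marker organoids and 5 with the cortex marker sum as a covariate, and 7 to 17 without 1 organoid, with 7 without D25 replicate 1. The 0 lower became 1 with DESeq2's test, with annotated genes only and when only these days were fitted, and 0 to 1 without 1 organoid. For D30 against D25 the 8 higher became 0 in the low-marker organoids and 13 with the covariate, and 4 to 16 without 1 organoid (4 without D25 replicate 5, 5 without D25 replicate 3 or D30 replicate 1, 2 or 4, and 16 without D30 replicate 6). The 1 lower became 0 in the low-marker organoids and 0 to 1 without 1 organoid. The number of all features called higher moved as well. From D20 to D22 it was 760 in the main fit, 1223 with DESeq2's test and 1023 without D22 replicate 6. From D22 to D25 it was 1448 in the main fit, 1534 with only these days, 845 with the covariate and 1037 without D25 replicate 1. From D25 to D30 it was 827 in the main fit, 1013 with the covariate, 555 without D25 replicate 5 and 1066 without D30 replicate 6. The causes were not tested.

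The log2 ratios between D30 and D20 ranged, without 1 organoid, from 3.40 to 4.42 for Grin2a to Grin2b, -0.86 to -0.70 for Gria2 to Gria1, 1.23 to 1.64 for Glra1 to Glra2 and -0.64 to 0.21 for Grin2c to Grin2d. The ratio of Chrne to Chrng, with no test, ranged from 0.05 to 0.53. From counts summed over a day, Grin2c to Grin2d turned to 0.064 and Glra1 to Glra2 was 3.59, and with 1 count added the latter was 0.61. The first 10 genes per kilobase shared 9 to 10 members without 1 organoid.

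In the low-marker organoids Chrm3 (-0.71), Gabrr3 (0.036), Grik2 (-0.39), Grik5 (-0.28) and Grin2c (-0.34) turned sign for D30 against D20. They were past no threshold in either fit. Calls of named genes that no longer passed numbered 30 in the low-marker organoids, 6 with the covariate (Grm5, Grm3, Gabrb1, Gabrb2 and Glrb for D25 against D22, Glra2 for D22 against D20), 1 with DESeq2's test (Gabrb1 for D30 against D25), 2 without a filter, and 1 each with filterByExpr and with only the compared days. Same-numbered organoids of 2 days did not deviate together (mean correlations between -0.04 and 0.00), so the numbers share no pairing, and the block cost 1 named call, Chrna7 for D30 against D25 (adjusted p = 0.0143). At this depth, the 17 untested members and the early levels of Gabrr1 and Grin2a rest on few counts.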
